A study of Arabidopsis thaliana with 16 samples.

Results

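The narrow peaks called for 35S:HSFA1b in unstressed leaves and in no other list numbered 8494, which was 62.9% of the 13498 narrow peaks of that list. A peak was counted as narrow when it spanned at most 1000 bp, and as found in no other list when it overlapped by not even 1 bp any peak of 35S:HSFA1b under heat stress (HS) or of NP:HSFA1b under non-stress (NS) or HS. The 35S NS list held 19640 peaks on chromosomes 1 to 5, and the 4 lists together held 35116. These peaks were therefore chosen by their interval in the 35S NS list and by the absence of a call in the others, so that their width, their enrichment and their absence elsewhere are described below and not tested. They lay mostly at low fold enrichment (FE) and often at a transcription start site (TSS), and several short promoter elements were more frequent at their summits than in the flanking sequence.

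HSFA1b is a class A1 heat shock transcription factor of Arabidopsis, one of the regulators that act at the onset of the heat shock response. Heat shock factors bind as trimers to the heat shock element (HSE), an array of GAA units that alternate in orientation. Those of class A activate chaperone genes, whereas those of class B act as repressors. The 35S promoter of a plant virus drives strong expression in most tissues and is used to overexpress a protein. Several other short elements are common in plant promoters. The G-box is bound by bHLH and bZIP factors of light, clock and abscisic acid signalling, the site II element by TCP factors at growth-related genes, the GAGA repeat by BPC proteins and the CGCG core by CAMTA factors.

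ChIP-seq was performed on leaves of 5-week-old plants in the Columbia background, in 16 samples that formed 8 groups of 2. In NP:HSFA1b the gene is fused to eYFP behind its native promoter and was precipitated with anti-GFP, and in 35S:HSFA1b it is fused to RFP behind the 35S promoter and was precipitated with anti-RFP. Control plants of the same ecotype, described by the study as wild type for the NP experiment, were precipitated with the same antibodies under NS and HS. Growth under NS was at 23 °C with a relative humidity of 60%, and HS was a transfer to 37 °C with a relative humidity of 86% for 30 min. Each construct was represented by a single transgenic line. Promoter, tag, antibody and line differ together between the 35S and NP lists and cannot be told apart. Each list was called from 2 pooled libraries, so that every value below is 1 value per peak and condition with no replicate error, and no test across samples could be made. The 95% exact (Clopper-Pearson) intervals given with shares cover counting error only, and neighbouring peaks or genes are not independent replicates.

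The sequences under the peaks show the elements that recurred at the summits. Each window holds a summit and the 50 bp to either side of it, on the plus strand of TAIR10 (RefSeq), and the capitals mark the element named. The G-box windows below come from the peaks with the highest FE among peaks holding a G-box. Windows that contain untranslated bases are not printed.
MIPS1 chr4:18472348-18472448: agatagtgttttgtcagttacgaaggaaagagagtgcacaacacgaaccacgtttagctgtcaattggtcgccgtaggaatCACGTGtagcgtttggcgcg
AT4G39404 chr4:18329849-18329949: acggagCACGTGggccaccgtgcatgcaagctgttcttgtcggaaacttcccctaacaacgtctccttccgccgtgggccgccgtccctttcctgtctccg
MYBC1 chr2:17099324-17099424: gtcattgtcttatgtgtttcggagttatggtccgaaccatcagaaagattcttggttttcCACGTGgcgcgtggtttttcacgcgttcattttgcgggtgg
AT1G79150 chr1:29778316-29778416: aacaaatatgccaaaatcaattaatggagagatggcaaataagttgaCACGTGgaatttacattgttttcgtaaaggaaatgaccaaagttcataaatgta

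The windows with a complete HSE are shown for contrast, since few peaks held one. The capitals mark 3 alternating units of GAA or TTC, each separated by NN.
AT1G80280 chr1:30187148-30187248: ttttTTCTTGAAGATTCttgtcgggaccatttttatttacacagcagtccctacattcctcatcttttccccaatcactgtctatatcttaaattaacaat
AT3G00290 chr3:3655825-3655925: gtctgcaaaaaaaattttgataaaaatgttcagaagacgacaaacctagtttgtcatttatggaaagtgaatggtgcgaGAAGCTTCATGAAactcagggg

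Windows with a site II element (PME61 and CYP78A6), a GAGA repeat (CRK5, ZFP8 and AT2G09730) and a CGCG core (AT2G40460) come from the peaks of highest FE that held each element. These 3 elements were picked for display after their frequencies had been seen.
PME61 chr3:21803108-21803208: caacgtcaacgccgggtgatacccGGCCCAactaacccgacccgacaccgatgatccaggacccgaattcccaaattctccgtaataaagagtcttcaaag
CYP78A6 chr2:19153858-19153958: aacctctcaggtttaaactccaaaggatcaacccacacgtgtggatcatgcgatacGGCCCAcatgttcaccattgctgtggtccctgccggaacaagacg
CRK5 chr4:12117327-12117427: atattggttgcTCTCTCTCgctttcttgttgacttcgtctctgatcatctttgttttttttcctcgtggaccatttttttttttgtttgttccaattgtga
ZFP8 chr2:17506437-17506537: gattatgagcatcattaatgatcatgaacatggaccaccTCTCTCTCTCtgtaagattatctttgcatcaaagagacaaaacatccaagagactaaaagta
AT2G09730 chr2:19101009-19101109: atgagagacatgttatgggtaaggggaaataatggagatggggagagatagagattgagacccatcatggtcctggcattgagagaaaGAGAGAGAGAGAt
AT2G40460 chr2:16895698-16895798: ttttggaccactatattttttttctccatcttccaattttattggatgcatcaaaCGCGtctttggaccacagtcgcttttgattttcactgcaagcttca

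The peaks were weakly enriched. FE, the fragment pileup at the summit over the local background, ran from 1.01 to 3.14 with a median of 1.47 and quartiles of 1.35 and 1.66. The summit pileup ran from 112 to 794 fragments with a median of 137. The −log10 q-value ranged from 1.3 to 57.7 with a median of 4.53, and the width from 214 to 1000 bp with a median of 400 bp. Only 535 peaks, or 6.30% (5.79 to 6.84%), reached an FE of 2, the cut-off named in the study's methods, against 17.9% of all 35S NS peaks. The share was 10.2% (9.37 to 11.2%) for the 4480 narrow 35S-only peaks that were called under both NS and HS. It was 36.8% (32.7 to 41.1%) for the 524 narrow 35S NS peaks that overlapped an NP peak, and 37.8% for the 6142 wide 35S NS peaks. For the 1227 narrow 35S-only peaks called under HS alone it was 0.815% (0.391 to 1.49%), measured in the shallower HS list. These shares are descriptions, since width and a call in another list, which define the sets, are tied to enrichment.

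**Figure D1:**
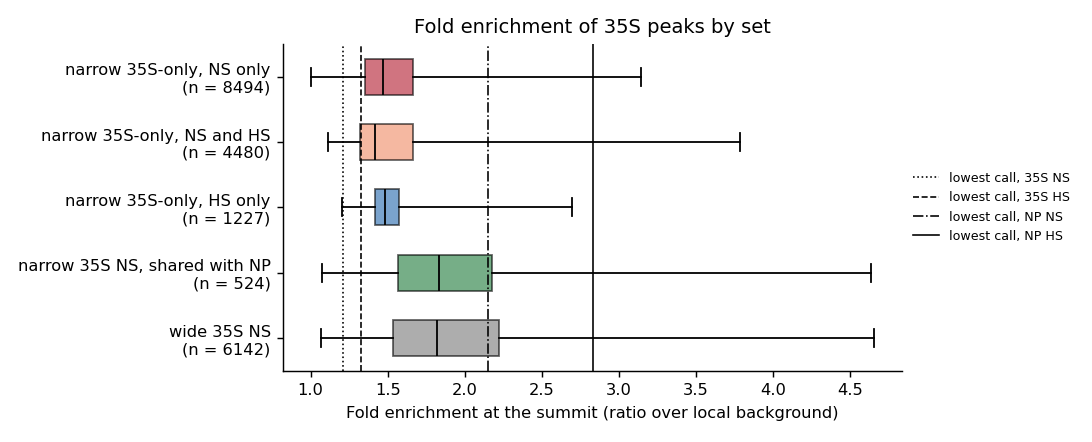
Fold enrichment at the summit (ratio, horizontal axis) for 5 sets of 35S peaks; boxes span the quartiles, the line inside is the median and whiskers reach the lowest and highest peak. Vertical lines give the lowest FE called at the constant background of each list (not the lowest of the whole list), and the NS-only box (median 1.47) lies between the 35S HS line at 1.33 and the NP NS line at 2.15.

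Absence from the other lists was read against what those lists could call. The 35S NS pool kept 19579327 treatment fragments, the 35S HS pool 13481546, the NP NS pool 6783161 and the NP HS pool 2438702. The control of 35S NS held 4 libraries, of which 2 also served as the control of 35S HS, whereas the other lists had 2 control libraries each. The background recovered from pileup and FE was the lowest constant value of the list, 93.3 fragments, for 8432 peaks (99.3%). At that constant background the lowest FE called was 1.21 in 35S NS, 1.33 in 35S HS, 2.15 in NP NS and 2.83 in NP HS. Of the NS-only peaks, 1589 (18.7%) had an FE under the 35S HS value and 6905 (81.3%) an FE at or above it. Among the narrow peaks called in both conditions, 28.4% had an NS enrichment under that same value. Against the NP NS value at the constant background, 8200 peaks (96.5%) fell below and 294 reached it, and 6 reached the NP HS value. These NP values hold at the constant background alone, where 239 of 955 NP NS and 628 of 1259 NP HS peaks lay. Over higher local backgrounds NP peaks were called down to an FE of 1.18 under NS and 1.11 under HS, so that what could be called at a single peak in the NP lists is not known. For a missing 35S HS call, less binding, lower depth and the unlike controls cannot be told apart at a single peak.

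The remaining 62 peaks had a local background above the constant one. Their background ranged from 95.4 to 636 fragments with a median of 216, and their FE from 1.01 to 1.73. The highest pileup of 794 and the lowest FE of 1.01 came from this small group.

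Peaks just inside and just outside the limits of the selection overlapped in FE. The 13 peaks just inside the width limit, 996 to 1000 bp wide, had a median FE of 1.75 (1.49 to 1.99), and the 14 peaks otherwise eligible just outside it, 1001 to 1005 bp, had a median of 1.59 (1.34 to 2.32). On the overlap limit, 9 peaks had a peak of another list within 10 bp (median FE 1.3), and 13 narrow peaks had been left out for an overlap of at most 10 bp (median FE 1.31). The nearest 35S HS peak was at a median distance of 4580 bp, with a lowest gap of 2 bp. It lay within 1 kb of 1559 peaks (18.4%) and over 10 kb from 34.5%. The NS-only peaks were closer to each other, with a median of 2033 bp to the nearest of their kind and 33.0% within 1 kb of it.

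Of the 12 peaks with the highest FE, 11 are described by position, with the gene whose TSS was nearest. The strongest, at chr4:18471882-18472616 (FE 3.14, pileup 292), had its summit 350 bp upstream of MIPS1 (AT4G39800), which encodes the myo-inositol phosphate synthase that starts inositol production. The peak at chr4:12116987-12117797 (FE 3.08, pileup 286) lay downstream of CRK5 (AT4G23130), a cysteine-rich receptor-like kinase gene, 2843 bp from its TSS. The peak upstream of ZFP8 (AT2G41940), a zinc finger protein gene, spanned chr2:17506311-17506858 with an FE of 2.98 and a summit 856 bp before the TSS. All 3 of these summits lay between genes.

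The peak at TIR1 (AT3G62980), which encodes an auxin receptor F-box protein, spanned chr3:23276259-23276884. Its summit lay in an untranslated region 84 bp inside the gene, with an FE of 2.95, a pileup of 274 and a G-box in the window. At EXO70H3 (AT3G09530), a gene for an exocyst subunit, the peak at chr3:2927929-2928910 (FE 2.83) had its summit 2393 bp inside the gene in an untranslated region. The peak 47 bp upstream of AT4G19985, annotated as an acyltransferase, spanned chr4:10832134-10832599 (FE 2.80) and held a CGCG core. A CGCG core was also in the window of the peak at chr2:16895502-16896151 (FE 2.79), 1159 bp upstream of AT2G40460, annotated as a major facilitator transporter.

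The other 4 of the 11 had a non-coding RNA gene as nearest TSS. AT5G09775 is a long non-coding RNA (lncRNA) gene whose peak spanned chr5:26687867-26688404 with an FE of 2.88. The lncRNA gene AT2G09730 carried a peak at chr2:19100515-19101316 (FE 2.77) over a GAGA repeat. AT4G39404, annotated as a non-coding RNA, carried one of equal FE at chr4:18329366-18330129, and its window held a G-box and 2 site II elements. This RNA gene lies close to the 3′ side of BRI1 (AT4G39400), the brassinosteroid receptor gene, whose TSS was 5442 bp from the summit. The peak at chr3:22121483-22122460 (FE 2.74) lay 733 bp downstream of the TSS of MIR827 (AT3G59884), the gene of a microRNA known for its role in phosphate homeostasis. By nearest TSS, 7269 of all 8494 peaks (85.6%) had a protein-coding gene nearest.

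Summits gathered at transcription start sites. Of the 8494, 3229 (38.0%, 37.0 to 39.1%) lay within 250 bp of a TSS, where 15.0% of all positions of the chromosomes lie. All positions include sequence under wide 35S NS peaks and peaks of the other lists, where no NS-only peak can lie. The share of the remaining sequence was not computed. More of the NS-only summits were downstream of the TSS (1942, 22.9%) than upstream of it (1287, 15.2%). The fullest 100 bp was the stretch just inside the gene, with 926 summits (10.9%). The share was 33.4% (32.0 to 34.8%) in the narrow peaks of both conditions, 38.1% (36.9 to 39.4%) in the wide peaks and 52.1% (47.7 to 56.4%) in the narrow peaks shared with NP. In the HS-only peaks it was 14.4% (12.5 to 16.5%), and 3.59% lay upstream. The interval of the NS-only peaks overlapped that of the wide peaks alone among these sets.

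**Figure D2:**
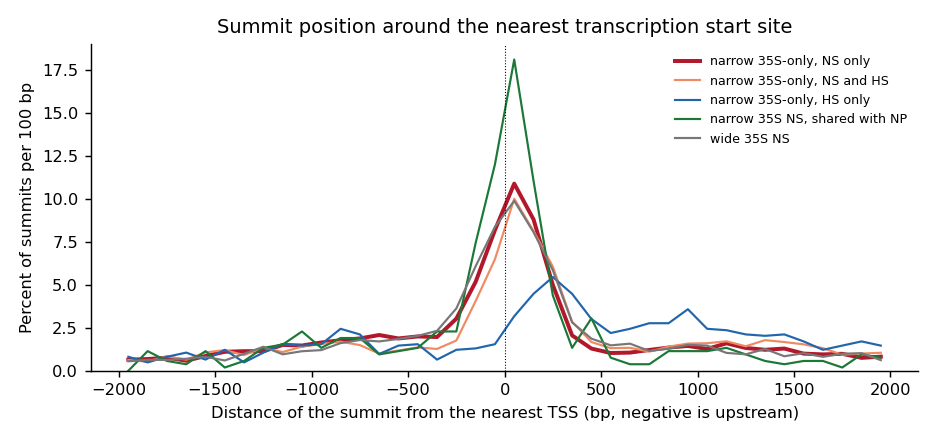
Percent of summits per 100 bp (vertical axis) by distance from the nearest TSS in bp (horizontal axis, negative is upstream) for 5 sets of 35S peaks. The NS-only line (thick) tops at 10.9% in the first 100 bp inside the gene, and the HS-only line is low at the TSS and highest further inside.

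By annotated feature, 43.2% of summits lay between genes, 24.0% in untranslated regions (UTRs), 21.3% in coding exons, 7.24% in introns and 4.29% in RNA genes or pseudogenes. All positions of the chromosomes divide as 35.9%, 10.6%, 28.3%, 15.2% and 9.99% in the same order. Coding exons and introns thus held fewer of the summits than of the genome, and UTRs more. The genome shares again include sequence under other peaks, where no NS-only peak can lie. The HS-only peaks had 54.2% of summits in coding exons (51.4 to 57.0%) and 8.88% in UTRs, and the peaks of both conditions 29.5% (28.1 to 30.8%) in coding exons. Within the NS-only peaks the coding share was smaller in the higher FE classes, from 29.8% (28.5 to 31.2%) of the 4577 peaks under 1.5 to 12% (10.9 to 13.1%) of the 3382 from 1.5 to 2 and 6.92% (4.92 to 9.41%) of the 535 at 2 or more. The share near a TSS was 30.0%, 48.8% and 38.5% in these classes, so that it was highest in the middle one.

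The summits had 6806 different genes as nearest, of which 5809 were protein-coding, and 1314 genes had 2 or more peaks. The most, 9 peaks, belonged to CYP735A2 (AT1G67110), a cytochrome P450 gene of the family that makes trans-zeatin cytokinins. These 9 lay upstream of it between chr1:25067117-25080272, with FE values from 1.24 to 1.41 and a median of 1.28. These values were near 1.21, the lowest FE called at the constant background of the 35S NS list.

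Short RNA genes transcribed by RNA polymerase III were among the covered features. The peaks overlapped 123 of 625 tRNA genes (19.7%, 16.6 to 23.0%), although they cover 3.20% of the chromosomes and a tRNA gene has a median length of 73 bp. Of protein-coding genes, which have a median length of 2078 bp, they overlapped 20.7%. The narrow peaks of both conditions overlapped 11.0% of tRNA and 10.6% of protein-coding genes, the wide peaks 45.8% and 43.5%, and the HS-only peaks 0.32% (2 genes) and 3.29%. These sets differ in number and in covered sequence, so that their shares were not compared with each other. The 121 NS-only peaks over a tRNA gene had FE values from 1.3 to 2.19 with a median of 1.62. By amino acid, 11 of 24 tRNA-Thr, 4 of 10 tRNA-His, 12 of 33 tRNA-Ala, 6 of 17 tRNA-Phe and 12 of 64 tRNA-Ser genes were overlapped, and 2 of 76 tRNA-Tyr genes. Of lncRNA genes 11.4% were overlapped, of snRNA genes 12 of 82 and of pseudogenes 2.27%.

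The elements at the summits differed in frequency from those in the flanks, which were windows of the same length 700 bp to either side. The G-box (CACGTG) was present in 391 summit windows (4.60%, 4.17 to 5.07%) and in 1.2% (1.04 to 1.38%) of flanks. It occurred in 3.28% (2.78 to 3.84%) of summits of the peaks of both conditions and in 5.47% (4.91 to 6.07%) of the wide peaks. The share was 7.63% (5.51 to 10.2%) in those shared with NP and 0.652% (0.282 to 1.28%) in the HS-only peaks. Of all NP NS and NP HS peaks 7.02% and 7.70% held a G-box, so that it was not particular to the NS-only peaks. Tiled along the chromosomes, 1.11% of such windows hold it. The interval of the HS-only summits thus included the genome's share. Among the NS-only peaks the share was larger in the higher FE classes, from 2.43% (2.0 to 2.91%) under 1.5 to 6.09% (5.31 to 6.95%) between 1.5 and 2 and 13.8% (11.0 to 17.0%) at 2 or more. G-boxes were as frequent within 250 bp of a TSS (4.71%) as further away (4.54%), with overlapping intervals. The median FE of the peaks with a G-box was 1.67, in a range from 1.22 to 3.14.

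The complete HSE was rare. It was present in 31 summit windows (0.365%, 0.248 to 0.518%), in 0.182% (0.124 to 0.259%) of flanks and in 0.196% of tiled windows, so that the intervals of summits and flanks just overlapped. The share was 0.335% (0.188 to 0.552%) in the narrow peaks of both conditions and 0.0815% (1 peak) in the HS-only peaks. In the wide peaks it was 0.798% (0.591 to 1.05%). A low share was thus not particular to the NS-only peaks. By contrast, 23 of the 524 narrow 35S NS peaks shared with NP held one (4.39%, 2.80 to 6.51%), as did 3.04% of all NP NS and 4.92% of all NP HS peaks. The selection left out every peak that overlapped an NP peak, and the part of this in the low share was not tested. With 1 mismatch allowed, 4.50% of NS-only summits, 3.70% of their flanks and 17.0% of the NP-shared summits held an HSE. An HSE of 2 units, which overlaps the complete form, was in 8.49% (7.90 to 9.10%) of NS-only summits and 7.62% (7.22 to 8.03%) of flanks. The share with a complete HSE was 0.284%, 0.473% and 0.374% in the 3 FE classes, with overlapping intervals.

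The 6 peaks of highest FE with a complete HSE were not at chaperone genes. All 21 cytosolic and organellar chaperone genes searched had an NP peak in the gene or within 1 kb, and 18 a 35S HS peak. By the selection an NS-only peak cannot overlap such a peak, and the part of this in the absence was not tested. Among the 6, SNRK2.3 (AT5G66880), a kinase gene of abscisic acid signalling, had the highest at chr5:26709820-26710763 (FE 2.32). Its summit lay in an untranslated region 271 bp inside the gene. The peak at SNRK2.3 was followed by one at chr1:30187061-30187696 (FE 2.11), 482 bp upstream of AT1G80280, annotated as a hydrolase. The peak at AT1G10050, annotated as a glycosyl hydrolase, had an FE of 1.83 and that at the RNA gene AT3G00290 an FE of 1.78. BGLU10 (AT4G27830), a beta glucosidase gene, had its summit 22 bp upstream of the TSS with an FE of 1.76. NLP7 (AT4G24020), a transcription factor gene of nitrate signalling, had its summit in an untranslated region 342 bp inside the gene with an FE of 1.75. The FE of all 31 ran from 1.28 to 2.32 with a median of 1.53.

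Other elements were also denser at the summits. Site II (GGCCCA) was in 390 summit windows (4.59%, 4.16 to 5.06%) and in 1.34% of flanks. Its share was 4.0% (3.44 to 4.61%) in the peaks of both conditions, 3.65% (3.19 to 4.15%) in the wide peaks and 0.896% in the HS-only peaks. The GAGA repeat (GAGAGAGA) was in 399 (4.70%, 4.26 to 5.17%) and in 1.67% of flanks, with 5.25% (4.61 to 5.94%) in the peaks of both conditions, 5.19% (4.65 to 5.78%) in the wide peaks and 2.85% in the HS-only peaks. Neither was thus particular to the NS-only peaks. Both were more frequent near a TSS than beyond 250 bp from it, with 6.75% against 3.27% for site II and 8.83% against 2.17% for the GAGA repeat. The GAGA repeat was most frequent in summits that lay in UTRs (11.7%, 10.4 to 13.2%), and the G-box and site II in summits between genes (6.70% and 6.59%). The motifs were read on both strands, and tiled windows held site II at 1.56% and the GAGA repeat at 1.61%. Of HS-only summits within 250 bp of a TSS 10.7% (6.59 to 16.3%) held the GAGA repeat, and 1.52% of those further away. The lower HS-only share thus did not hold near a TSS. All NP NS summits held the GAGA repeat at 1.68% (flanks 1.94%) and all NP HS summits at 3.02% (flanks 1.79%).

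The 6-letter words of the summits were counted without regard to known elements, counting a word and its reverse complement together, over 1970 words. The word with the largest ratio of summit to flank share among words in at least 1% of summits was ACGCGC, at 2.60% against 0.477%, a ratio of 5.46. AGCGCG followed with a ratio of 4.03, CACGTG with 3.83, CGCGCC with 3.76, CACGCG with 3.52 and GGCCCA with 3.42. The CGCG core common to several of these, picked after this ranking was seen, was in 703 summit windows (8.28%, 7.70 to 8.88%), and 4.23% (3.93 to 4.54%) of flanks. It was in 7.25% (6.51 to 8.05%) of summits of the peaks of both conditions, 9.80% (9.07 to 10.6%) of the wide peaks and 4.24% (3.18 to 5.52%) of the HS-only peaks. The core was also in 14.3% of the NP-shared summits and in 17.9% (14.8 to 21.5%) of the NS-only peaks with an FE of at least 2. Mean GC content was 38.1% in summit windows and 35.3% in flanks, and its part in the word counts was not tested.

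The G-box, site II, the GAGA repeat and the CGCG core together were in 1710 summit windows (20.1%, 19.3 to 21.0%), in 8.12% of flanks, in 8.32% of tiled windows and in 8.56% (7.05 to 10.3%) of HS-only summits. The remaining 79.9% of NS-only peaks had none of the 4 within 50 bp of the summit. Pairs were few, with the G-box and CGCG core in 59 windows and the G-box and site II in 29. The ACGT core and the UPRE overlap the G-box in part, and the UPRE (TGACGTG) was in 1.39% of summits against 0.594% of flanks. The telo-box (AAACCCTAA) was in 1.21% against 0.648%, the GCC-box (GCCGCC) in 2.07% against 1.22%, the W-box (TTGAC) in 23.0% against 18.9% and the STRE (AGGGG) in 5.89% against 4.19%. The I-box (GATAAG) at 5.06% against 4.97%, the LEAFY core (CCANTG) at 11.6% against 12.1% and the evening element (AAAATATCT) at 0.542% against 0.459% had overlapping intervals in summits and flanks.

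**Figure D3:**
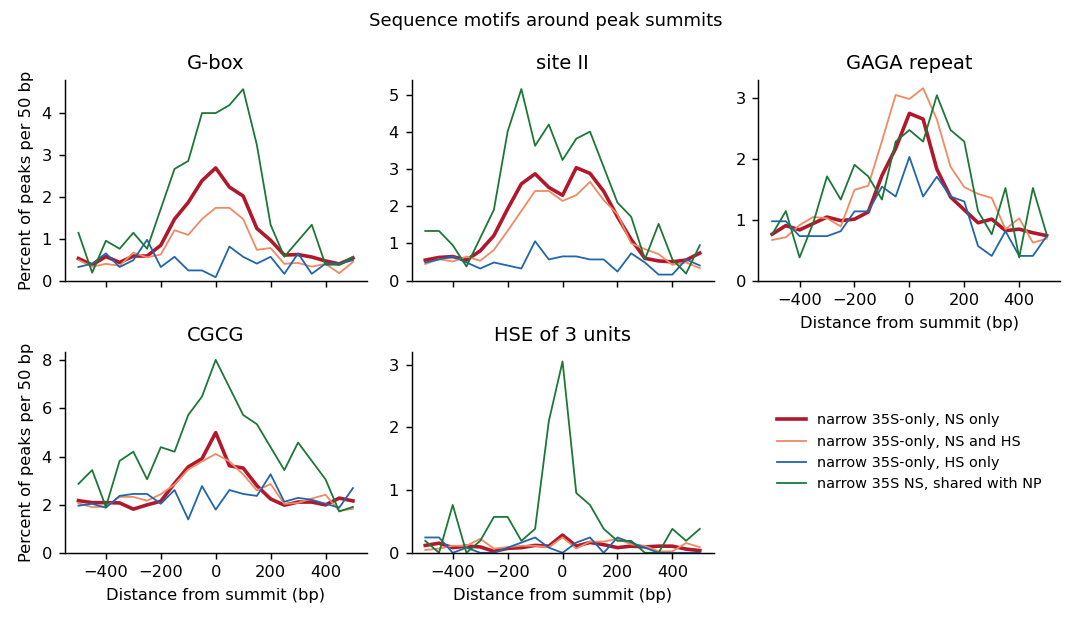
Percent of peaks with an element in each 50 bp (vertical axis) by distance from the summit in bp (horizontal axis) for 4 sets of 35S peaks, one panel an element, with scales that differ between panels. The G-box of the NS-only peaks (thick line) tops at 2.70% at the summit, and the HSE reaches 0.283% there against 3.05% in the peaks shared with NP.

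The peaks were spread unevenly over the chromosomes. Chromosomes 1 to 5 held 1683, 1714, 1916, 1510 and 1671 of them, or 55.3, 87.0, 81.7, 81.2 and 61.9 per Mb. Wide 35S NS peaks, which reached 5098380 bp in length, covered 66.3%, 4.79%, 36.3%, 2.41% and 56.0% of the chromosomes in the same order, and an NS-only peak cannot be called where a wide one lies. Per Mb free of any other peak the order turned, with 171, 95.4, 168, 84.4 and 158 on chromosomes 1 to 5. Chromosomes 2 and 4, with little wide coverage, thus had the lowest density in free sequence. Chromosome 4 had the highest median FE (1.57, against 1.41 to 1.5 elsewhere) and the highest share with an FE of at least 2, 10.7% against 4.38 to 5.98%. It also had the highest G-box share, 6.16% (5.00 to 7.49%), against 3.60 to 4.97% elsewhere, and the highest share near a TSS, 47.7% (45.1 to 50.2%), against 33.2 to 41.5%. Its G-box interval overlapped those of chromosomes 1 (3.15 to 5.09%), 2 (3.61 to 5.65%) and 5 (3.98 to 6.12%). Peaks called in both conditions were few on chromosome 4, 147, against 2255 on chromosome 3. The part of the wide calls in these differences between chromosomes was not tested.

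**Figure D4:**
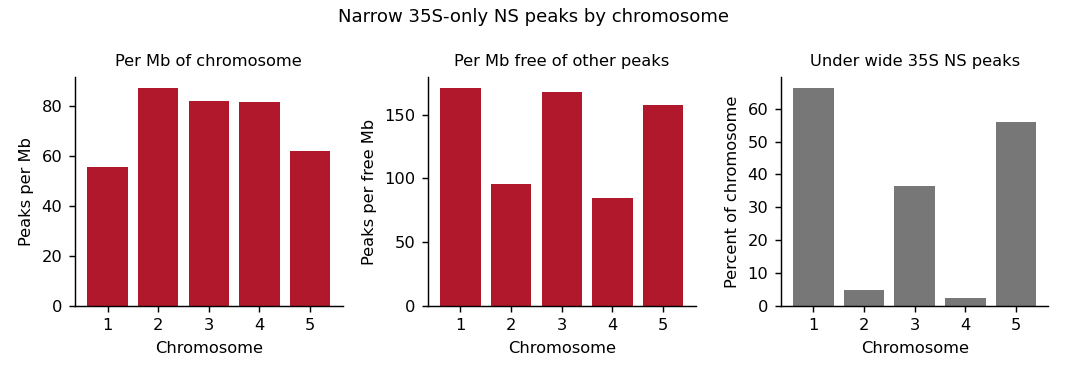
NS-only peaks per Mb of chromosome (left), per Mb free of any other peak (middle) and percent of each chromosome under wide 35S NS peaks (right), for chromosomes 1 to 5. Chromosomes 2 and 4 have the lowest bars in the middle panel, 95.4 and 84.4 per free Mb, and the lowest wide coverage, 4.79% and 2.41%.

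Few of the peaks were in gene-poor DNA. The pericentromeres, defined by gene density, span 16.1% of the chromosomes and held 247 NS-only peaks (2.91%), against 549 (12.3%) of the peaks called in both conditions. Sequence under other peaks, where no NS-only peak can lie, was not taken out of that span. Its part in the low share was not tested.

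Genes of 9 lists, chosen for heat, light, clock, hormone and stress functions, were searched for an NS-only peak in the gene or within 1 kb. Of 170 genes 59 had one (34.7%), against 30.5% of all 27444 protein-coding genes, so that the lists as a whole stood near the background. With 12 to 26 genes a list, the shares of single lists have wide counting error and none was tested. A peak in reach of a listed gene can have another gene as nearest TSS. Among the peaks named below this held at HSFA1A, HSFB2A, HSP101, HSP90.3, HSP21, BZIP17 and CDF1, and for the highest at IRE1A. It also held at LHCB2.1, HAB1, CAT2, BRI1, FLC, SOC1 and BZR1.

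Most heat shock factor and chaperone genes had a peak of another list in reach. By the selection an NS-only peak cannot overlap such a peak, and the part of this in their shares was not tested. A 35S HS peak was in reach of 15 of 21 heat shock factor and 18 of 21 chaperone genes, and also of 11 of 13 abscisic acid response genes. Of 21 heat shock factor genes 5 had an NS-only peak (23.8%). HSFA3 (AT5G03720), a factor that acts downstream in the heat and drought response, had its summit 70 bp inside the gene with an FE of 1.97, and HSFB2A (AT5G62020), a class B factor gene, had one beyond its 3′ end with an FE of 1.82. HSFA7A (AT3G51910), a class A factor gene, and HSFA1A (AT4G17750), a close relative of HSFA1b itself, had peaks of FE 1.40 and 1.34. The summit at HSFA1A lay 76 bp upstream of it, with AT4G17760 as the gene of nearest TSS. Of 21 cytosolic and organellar chaperone genes 4 had one (19.0%), while all 21 had an NP peak in reach. These were HSP90.2 (AT5G56030, FE 1.78), HSP90.3 (AT5G56010, FE 1.65) and HSP101 (AT1G74310, FE 1.38), with summits past the 3′ end, and HSP21 (AT4G27670, FE 1.65), with its summit 1015 bp upstream. HSP90.2 and HSP90.3 lie close together on chromosome 5. Of 16 endoplasmic reticulum and unfolded protein response genes 5 had one (31.2%). The highest was at the calreticulin gene CRT3 (AT1G08450, FE 1.53), with its summit at the TSS. Next was a peak within 1 kb of the stress sensor gene IRE1A (AT2G17520, FE 1.51). Its summit lay upstream of IRE1A in a coding exon, with EMB2763 as the gene of nearest TSS. Another peak, with its summit inside IRE1A, had an FE of 1.32. By their highest peak, the transducer genes BZIP17 (AT2G40950, FE 1.43) and BZIP28 (AT3G10800, FE 1.37) followed.

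Of 26 photoreceptor and light signalling genes 16 had one (61.5%). PIL1 (AT2G46970), a bHLH gene of the shade response, had the highest, with an FE of 2.68 and a summit 1231 bp upstream of the TSS. BBX22 (AT1G78600), a B-box protein gene that promotes light responses, followed with 2.36 and a summit 91 bp upstream. PIF7 (AT5G61270), another shade bHLH gene, had 1.97, and SPA1 (AT2G46340), a partner of the COP1 ubiquitin ligase, 1.70. Of 20 circadian clock genes 8 had one (40.0%). ELF4 (AT2G40080) and ELF3 (AT2G25930), whose proteins act together in the evening complex, had FE values of 2.13 and 2.07, and 4 peaks were in reach of ELF3. CDF1 (AT5G62430), a repressor of flowering under clock control, had 2.12 from a summit downstream of the gene, 2726 bp from its TSS. ZTL (AT5G57360), a blue-light F-box protein gene, had 1.85. The summits at ELF3 and ZTL lay 174 and 133 bp inside the gene and that at ELF4 151 bp upstream of it.

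Of 21 light-harvesting and Rubisco small subunit genes 2 had one (9.52%), and all 21 had a wide 35S NS peak in reach. The peaks were at LHCA2 (AT3G61470, FE 2.55), 1019 bp upstream, and at LHCB2.1 (AT2G05100, FE 1.54), past its 3′ end.

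Of 13 abscisic acid response genes 8 had a peak (61.5%). ABI5 (AT2G36270), a bZIP factor gene of the seed response, had an FE of 1.90 and its summit 39 bp inside the gene, and COR15A (AT2G42540), a cold-regulated gene, had 1.77 at 45 bp. HAB1 (AT1G72770), a phosphatase gene that dampens the response, had 1.69 with a G-box, and RD29A (AT5G52310), a desiccation-responsive gene, had 1.63 from a peak that is also within reach of its neighbour RD29B. Of 20 stress transcription factor and antioxidant genes 5 had one. They included GOLS1 (AT2G47180), a galactinol synthase gene, with an FE of 1.95 and a G-box 699 bp upstream, and the ethylene response factor gene ERF13 (AT2G44840) with 1.85. SZF2 (AT2G40140), a zinc finger gene, had 1.82, and CAT2 (AT4G35090), a catalase gene, 1.81. Of 12 flowering and growth genes 6 had one. The highest was that beside BRI1 (FE 2.77), and FLC (AT5G10140), a floral repressor gene, and SOC1 (AT2G45660), a floral activator gene, had 1.67 each, all past the 3′ end. BZR1 (AT1G75080), a brassinosteroid-regulated factor gene, had 1.60 from a summit downstream of the gene, 3179 bp from its TSS.

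**Figure D5:**
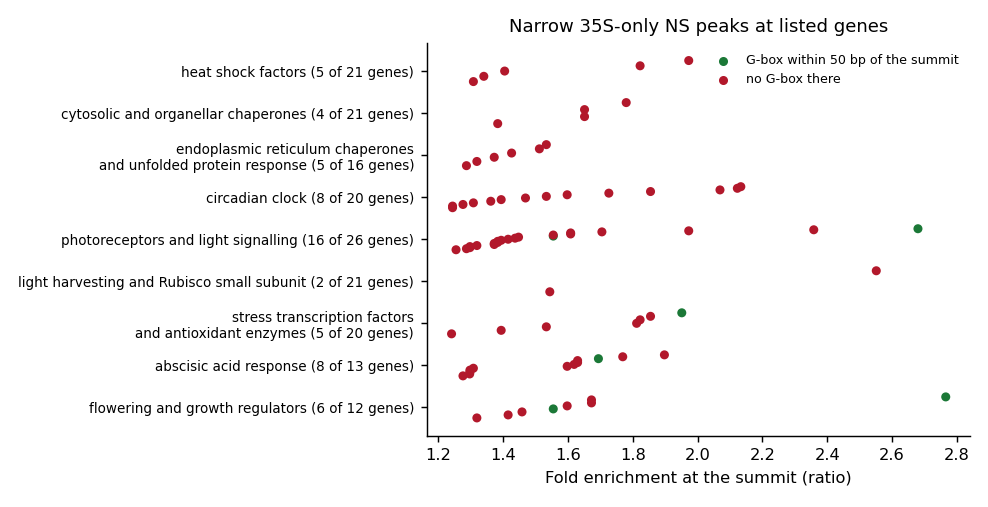
Fold enrichment at the summit (ratio, horizontal axis) of each NS-only peak in or within 1 kb of a gene of the 9 lists (vertical axis, with the number of genes that had a peak); green points have a G-box within 50 bp of the summit. The highest points are those at BRI1 (2.77), PIL1 (2.68) and LHCA2 (2.55), and all heat shock factor and chaperone points lie under 2.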

How the data were processed

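Per the study's methods, the authors mapped reads to TAIR10 with GSNAP, removed duplicates with SAMtools and ran MACS2 for the peak calls. The version, per the file headers, was 2.0.10.20131028, applied to pooled paired-end libraries with a q-value limit of 0.05. The effective genome size in the headers differs from that in the methods, and the FE limit of 2 named there was not applied to the deposited lists. The constant background, and with it most FE values, depends on that size. Redundant fragments removed were 35.0% of the 35S NS and 46.0% of the 35S HS treatment pools, and 61.0% and 64.0% of their controls. Samples were grouped from their labels alone.

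The deposited lists give, per the file headers, the pileup signal (fragment coverage) at the summit, the fold enrichment (a ratio over local background) and the −log10 of the q-value, beside a p-value column that was not used. Pileups are scaled within each list by the caller, so they were not compared between lists. The same peaks in other deposited formats were not used.

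Members and comparison sets were counted by overlap of 1 bp. The background was recovered as pileup plus 1 over FE. The 9 gene lists, the elements and the members were chosen with earlier results of these data known, so that none of the patterns is independent support. Coordinates are TAIR10, and sequences and genes come from RefSeq TAIR10.1, which has the same chromosome lengths. Named regions were the 12 members with the highest FE, the 6 of highest FE with a G-box, up to 6 with a complete HSE, and up to 4 genes a list. One region of highest FE and one G-box window are not reported here. Pericentromeres were the stretches around centromeres in which protein-coding genes per 500 kb window were under 50% of their median. Overlaps, distances and motif counts were tested on simulated data with known answers. Python 3.11.15, pandas 2.3.3 and scipy 1.17.1 were used. The alternatives were other width, FE, q, gap and overlap limits, the pericentromeres left out, and other TSS and motif windows.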

Additional observations from a re-analysis of the deposited data

How the results depend on the processing

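No paired analysis was possible because each list is 1 pooled call, and for the same reason no replicate could be left out. Each summary value of the NS-only peaks was recomputed under 47 combinations of result and alternative, and 25 moved by less than counting error or, for counts, by less than 1.5 times. The other 22 were as follows. With widths of at most 500 bp the share within 250 bp of a TSS was 36.7% and the median FE 1.44, and with widths of at most 2000 bp the median FE was 1.49. Requiring an FE of at least 2 left 535 peaks, with 6.92% in coding exons, 13.8% with a G-box and a median FE of 2.17. A q of at most 0.001 gave 45.2% near a TSS, 15.3% in coding exons, 5.77% with a G-box and a median FE of 1.57. With no other peak within 500 bp these were 39.8% near a TSS, 20.2% in coding exons and a median FE of 1.49. When only other peaks with an FE of at least 2 counted, they were 36.9%, 24.1% and 1.46. A TSS window of 500 bp gave 48.5%, and protein-coding TSSs alone 33.8%. Motif windows widened to 100 bp on either side of the summit gave 8.55% with a G-box and 0.589% with a complete HSE, and 1 mismatch gave 4.50% with an HSE. The causes were not tested beyond what each alternative's own construction fixes, such as a higher median FE under a higher FE limit. Pericentromeres left out moved none of the values by more than counting error.

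Depth and calling limits bound the selection: 6 of the peaks reached the lowest FE called at the constant background in NP HS and 294 that in NP NS, although NP peaks over higher backgrounds were called at lower FE. Without replicates of a list, the spread of any value between plants is unknown.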
